A study of Mus musculus with 30 samples.

Results

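Cells of the mouse testis selected for KIT at postnatal day 7 (P7) were compared with cells selected for THY1 at the same age, in 2 RNA libraries of each, 4 of the 30 samples of the series. Both came from C57BL/6 mice and are labelled as spermatogonia, and the labels name no mutation or treatment for either. KIT cells were pulled from the cell suspension with magnetic beads against CD117, the KIT receptor, and THY1 cells with beads against CD90.2, a form of THY1. Ribosomal RNA was removed from total RNA, strand-aware libraries were sequenced, and the authors deposited 1 FPKM value per gene and population for 20889 genes. FPKM counts sequenced fragments per length of transcript and per size of library. Each value stands for 2 libraries, so there is no spread between replicates, no difference below carries a test, and all of them describe these libraries. Whether the 2 libraries of a population came from separate mice, and how they were combined, is not given in the sources used here.

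Spermatogonia are the mitotic germ cells of the testis, and a small share of them are stem cells that maintain sperm production for life. Stem and progenitor spermatogonia carry the GDNF receptor, made of GFRA1 and RET, and are enriched by antibodies against THY1. Retinoic acid moves progenitors on to differentiating spermatogonia, which switch on KIT, a receptor tyrosine kinase, and STRA8 before they enter meiosis. Beads select by surface protein and not by lineage: Leydig cells and mast cells also carry KIT, and T lymphocytes and some fibroblasts also carry THY1. Other populations of the same age in the series serve here for orientation: cells sorted by fluorescence for GFP driven by Oct4 or by Id4, and a library labelled P7 VASA THY1. Its age is uncertain, because the protocol names VASA-GFP sorting at P0 only. These 3 columns, like the P14 columns, rest on 1 library each, and the P12 columns on 2.

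A gene was counted as higher or lower at 4-fold when log2(FPKM + 1) differed by 2 or more and the higher population reached 5 FPKM. At 2-fold a difference of 1 was asked. This scale understates the difference of genes at low level. All differences are KIT minus THY1, so a positive one means a higher level in KIT cells. Of the 9817 genes that reached 5 FPKM in either population, 31 (0.316%) were 4-fold higher in KIT cells and 44 (0.448%) were 4-fold lower. At 2-fold, 273 genes (2.78%) were higher in KIT cells and 268 (2.73%) were lower. The median difference was 0.03 over the 9817 genes and 0 over all genes. In the plot of all genes, most lie along the line of equal level, with steroid genes far above it and blood and spermatid genes far below it.

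**Figure D1:**
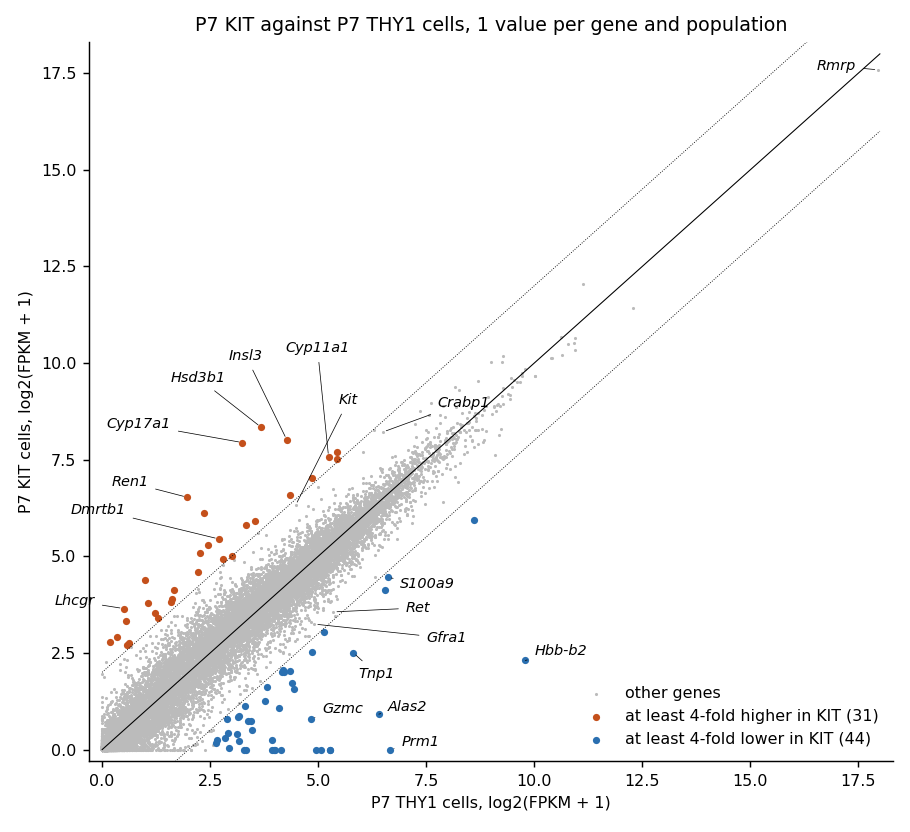
Each point is 1 gene, with log2(FPKM + 1) in P7 KIT cells on the vertical axis and in P7 THY1 cells on the horizontal axis. The solid line marks equal levels and the dotted lines a 4-fold difference. The 31 genes counted as 4-fold higher in KIT cells are orange and the 44 counted as 4-fold lower are blue, and Cyp17a1 and Hsd3b1 stand farthest above the line and Hbb-b2 farthest below it.

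The selected antigens were read first. Kit stood at 78.9 FPKM in KIT cells, against 21.3 FPKM in THY1 cells, a difference of 1.84. Thy1 stood at 0.592 FPKM in KIT cells and 1.64 FPKM in THY1 cells, so its transcript was below 5 FPKM in both, higher in the THY1 cells. Germ cell transcripts were abundant in both populations and close in level. Ddx4, the gene of the germ cell RNA helicase VASA, stood at 126 FPKM in KIT cells and 120.3 FPKM in THY1 cells. Dazl, a germ cell RNA-binding protein gene, stood at 571 FPKM in KIT cells and 606 FPKM in THY1 cells. Of the 9817 genes, 1134 (11.6%) were under 5 FPKM in both GFP-sorted P7 populations. Among the genes 4-fold higher in KIT cells this share was 24 of 31 (77.4%), and among those 4-fold lower 36 of 44 (81.8%). Most of these 4-fold genes reached 5 FPKM only in the population where they were higher, unlike most of the 9817 genes. Their shares are therefore not like for like with the share over the 9817 genes, and they describe levels only. Whether a difference in FPKM stands for fewer cells of a type or for less RNA per cell cannot be told apart in these bulk samples.

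A promoter from each of 4 gene groups described below is shown, because the groups differ in direction and in the cells known to use them: Gfra1 for the GDNF receptor, Stra8 for the response to retinoic acid, Ren1 for Leydig cells and Prm2 for spermatids. Each line gives the 250 bases before the gene's first base, 5′ to 3′ on the gene's strand, from RefSeq on GRCm38.p6. They were matched by symbol, since the FPKM values were made on build mm9. Capitals mark a match to AAGGTCA, the core site bound by the Leydig cell factor SF-1 and its relatives (called the SF-1 site below), or to TATAAA, the TATA box, on either strand.
Gfra1: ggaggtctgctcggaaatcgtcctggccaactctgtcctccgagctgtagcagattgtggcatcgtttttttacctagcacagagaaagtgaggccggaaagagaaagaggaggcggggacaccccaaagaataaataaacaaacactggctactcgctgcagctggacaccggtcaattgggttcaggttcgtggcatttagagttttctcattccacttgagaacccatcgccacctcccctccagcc
Stra8: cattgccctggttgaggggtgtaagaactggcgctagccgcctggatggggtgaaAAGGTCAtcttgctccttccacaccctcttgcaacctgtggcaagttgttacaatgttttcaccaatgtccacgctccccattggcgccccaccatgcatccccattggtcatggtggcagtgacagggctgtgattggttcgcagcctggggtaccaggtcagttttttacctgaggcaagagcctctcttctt
Ren1: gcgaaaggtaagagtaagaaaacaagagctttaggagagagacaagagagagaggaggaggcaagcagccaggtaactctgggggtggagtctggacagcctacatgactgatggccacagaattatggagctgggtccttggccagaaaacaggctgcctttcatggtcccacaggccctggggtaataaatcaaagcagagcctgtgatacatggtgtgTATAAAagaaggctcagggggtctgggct
Prm2: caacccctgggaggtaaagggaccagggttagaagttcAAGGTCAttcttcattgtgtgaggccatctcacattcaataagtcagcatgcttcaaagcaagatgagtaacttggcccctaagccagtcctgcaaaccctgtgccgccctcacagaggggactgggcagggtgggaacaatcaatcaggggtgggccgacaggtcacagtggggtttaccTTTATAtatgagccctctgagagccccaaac
These windows lie at chr19:58455399-58455648 (minus strand) for Gfra1, chr6:34920698-34920947 (plus strand) for Stra8, chr1:133350424-133350673 (plus strand) for Ren1 and chr16:10792106-10792355 (minus strand) for Prm2. In Stra8 the SF-1 site begins 195 bases before the start, and in Ren1 the TATA box begins 29 bases before it. Prm2 has the SF-1 site 212 bases and the TATA box, read on the other strand as TTTATA, 31 bases before the start. Gfra1 has neither. In that reference, 4.08% of 32851 promoters held AAGGTCA and 12.4% held TATAAA in the same 250 bases, on either strand. The reference windows also take in the 50 bases after the start, which were not searched. Of the 17 Leydig cell genes 12 matched, with 15 promoters, of which 0 held AAGGTCA and 1, that of Ren1, held TATAAA. The SF-1 site AAGGTCA was in 2 of the 27 promoters matched to genes 4-fold higher in KIT cells, those of Cst8 and Sct, and in 3 of the 40 matched to genes 4-fold lower, of Alas2, Celf2 and Prm2. TATAAA was in 4 of the 27 and 7 of the 40. The cAMP response element, TGACGTCA, was in 0 of the 27, in 2 of the 40, of Gzmc and Gzmf, and in 1.55% of all promoters. The Gzmc and Gzmf genes are close copies. A match describes letters, not binding.

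Genes of differentiating spermatogonia stood higher in KIT cells. Of 20 in the table, 15 reached 5 FPKM, 8 were 2-fold higher, none was 2-fold lower, and the median difference was 0.78. Against VASA THY1 the median was -0.027. Kit itself is 1 of the 8 and was the antigen selected. The gene with the largest difference was Dmrtb1, which encodes a factor that ends the spermatogonial programme as cells enter meiosis. Dmrtb1 stood at 42.7 FPKM in KIT cells and 5.49 FPKM in THY1 cells, a difference of 2.75, and it was the only list member past 4-fold. Lmo1, a LIM-domain cofactor gene, stood at 26.4 FPKM in KIT cells and 5.90 FPKM in THY1 cells, just inside 4-fold with a difference of 1.99. Esx1, an X-linked homeobox gene, stood at 15.9 FPKM in KIT cells and 3.70 FPKM in THY1 cells. Crabp1, whose product binds retinoic acid in the cytoplasm, had the highest level of the list, 296 FPKM in KIT cells and 89.3 FPKM in THY1 cells. Stra8, the retinoic acid target that opens the way to meiosis, stood at 106 FPKM in KIT cells and 39.7 FPKM in THY1 cells. Prss50, a testis protease gene, stood at 13.5 FPKM in KIT cells and 3.93 FPKM in THY1 cells, and Rhox13, an X-linked homeobox gene, at 39.2 FPKM in KIT cells and 17.5 FPKM in THY1 cells. These genes were thus present in both populations and more abundant in the KIT cells. Dmrt1 and Sohlh1, transcription factor genes used throughout the spermatogonial stages, differed by less than 2-fold (0.35 and 0.52). Ccnd2, a cyclin gene of early differentiation, went the other way, at 27.6 FPKM in KIT cells and 41.9 FPKM in THY1 cells (difference -0.59).

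The receptor and signal genes of GDNF stood lower in KIT cells: 10 of 21 were 2-fold lower, none was 2-fold higher, 20 lay below 0, and the median difference was -0.94. The direction of the list depends on the population compared: against VASA THY1 its median was 0.80, with a summed level of 327 FPKM in KIT cells and 303 FPKM in VASA THY1, beside 632 FPKM in THY1 cells. The signalling subunit gene Ret stood at 10.8 FPKM in KIT cells and 39.8 FPKM in THY1 cells, a difference of -1.79. Its partner Gfra1, which binds GDNF, stood at 8.49 FPKM in KIT cells and 29.0 FPKM in THY1 cells, a difference of -1.66. Both receptor subunits were thus over 3-fold lower, 3.46-fold for Ret and 3.16-fold for Gfra1 on the FPKM + 1 scale. Below the receptor, the transcription factor genes Etv5 and Etv4, which GDNF induces in stem cells, stood at 7.16 and 5.18 FPKM in KIT cells, against 20.2 and 15.0 FPKM in THY1 cells. The feedback inhibitor gene Spry4 stood at 6.20 FPKM in KIT cells and 21.6 FPKM in THY1 cells. Egr4, a signal-induced zinc finger gene, stood at 13.3 FPKM in KIT cells and 36.3 FPKM in THY1 cells. Egr2 and Egr3, its relatives, and Dusp4 and Dusp6, phosphatase genes that dampen the ERK kinases, made up the rest of the 10, with differences between -1.21 and -1.09. The Src family kinase genes Fyn, Lyn and Src were at -0.94, -0.44 and -0.11. Fgfr3, an FGF receptor gene, was the member above 0, at 7.08 FPKM in KIT cells and 5.64 FPKM in THY1 cells. Gdnf, the ligand, which Sertoli cells and myoid cells make, stood at 6.05 FPKM in KIT cells and 9.18 FPKM in THY1 cells.

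Regulators of stem cell maintenance stood lower in KIT cells on balance, with 20 of 23 below 0, but 3 passed 2-fold (median -0.48). Tcl1, a cofactor of AKT kinases, stood at 6.69 FPKM in KIT cells and 26.1 FPKM in THY1 cells, the largest difference of the list at -1.82. Id4, an inhibitor of helix-loop-helix factors that marks stem cells, stood at 12.0 FPKM in KIT cells and 29.6 FPKM in THY1 cells. Tspan8, a surface protein gene, stood at 3.34 FPKM in KIT cells and 9.81 FPKM in THY1 cells. Other factors tied to stem cells were nearer to 0: Bcl6b had a difference of -0.26, Foxo1 of -0.44 and Pou3f1 of -0.04. Nanos2, Lhx1, Eomes, Pax7 and Pdx1 were under 5 FPKM in both populations, so the count says nothing of them. Among 24 genes of undifferentiated progenitors 6 were 2-fold lower in KIT cells and none was 2-fold higher (median -0.30). The 6 were Sall1, Nanos3, Upp1, Foxf1 (listed as Foxf1a), Cdh1 and Pou5f1. Nanos3, an RNA-binding protein gene that holds cells back from differentiation, stood at 11.8 FPKM in KIT cells and 31.1 FPKM in THY1 cells. Pou5f1, which encodes OCT4, stood at 9.02 FPKM in KIT cells and 21.0 FPKM in THY1 cells. Zbtb16, which encodes the progenitor factor PLZF, was at 41.3 FPKM in KIT cells and 65.8 FPKM in THY1 cells (-0.66), and Sall4 at 34.7 and 40.2 FPKM in that order (-0.21). The progenitor genes were thus lower unevenly, with Zbtb16 and Sall4 inside 2-fold. Neurog3, a gene of progenitors on the way to differentiation, went the other way, at 4.13 FPKM in KIT cells and 0.843 FPKM in THY1 cells, under the 5 FPKM bound.

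**Figure D2:**
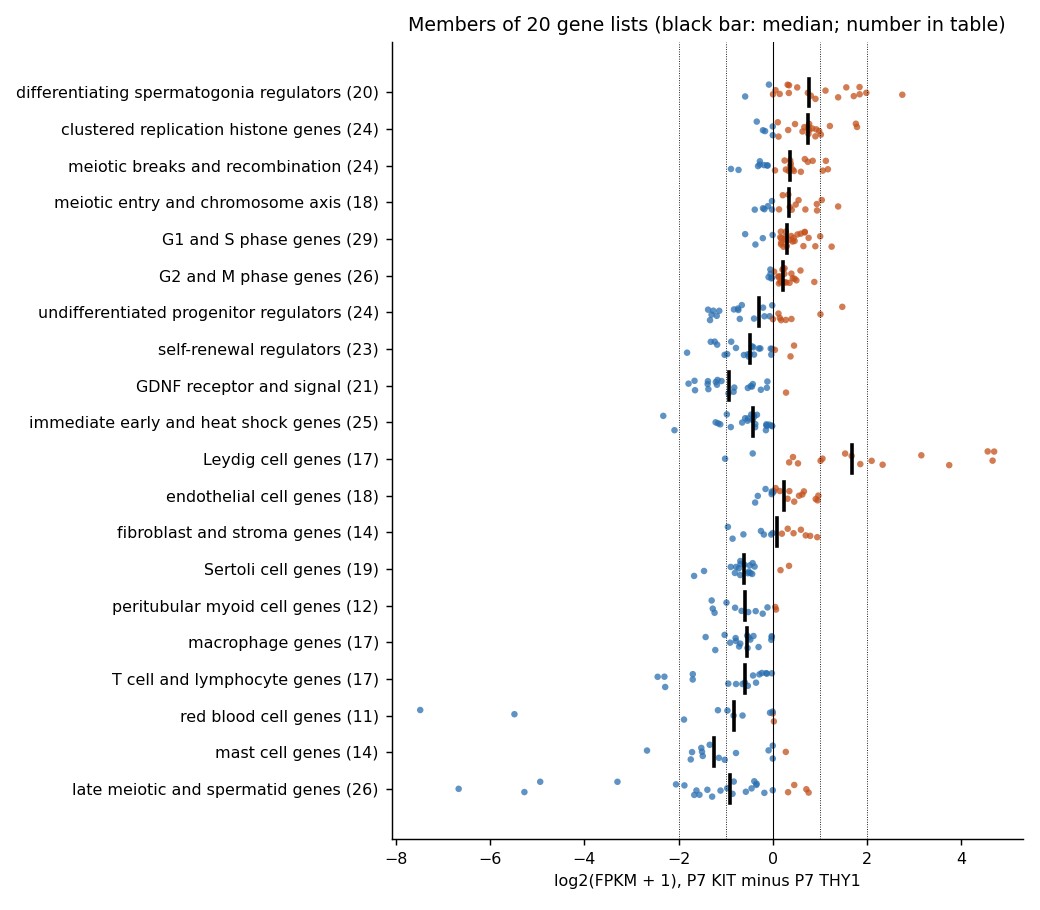
Each point is 1 gene of a list, placed by log2(FPKM + 1) in P7 KIT cells minus P7 THY1 cells, with the number of genes in the table in brackets; orange points lie above 0 and blue points at or below it. Black bars mark medians and dotted lines 2-fold and 4-fold differences. The Leydig cell list has the highest median of the 20 lists drawn, 1.68, and the mast cell list the lowest, -1.24.

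Downstream of the receptor, genes of KIT signalling differed little. Among 22 genes for the KIT ligand and downstream proteins 1 was 2-fold higher and 1 was 2-fold lower (median 0.01). Socs1, a suppressor of cytokine signals, was the higher, at 15.9 FPKM in KIT cells and 6.22 FPKM in THY1 cells. Pik3cd, a catalytic subunit of PI3 kinase, was the lower, at 9.07 FPKM in KIT cells and 21.6 FPKM in THY1 cells. Kitl, the ligand made by Sertoli cells, stood at 27.8 FPKM in KIT cells and 42.7 FPKM in THY1 cells. The kinase genes Akt1, Akt2 and Mtor differed by 0.52, 0.19 and -0.03.

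Genes of retinoic acid transport and turnover were among the larger differences, while its receptors differed by less than 2-fold. Rara, Rarg, Rxra and Rxrb, nuclear receptor genes at 5 FPKM or more, differed by 0.12, 0.40, 0.13 and 0.51. In the list of 12 receptors and binding proteins 2 were 2-fold higher, Crabp1 and Rbp4, none was 2-fold lower, and the median was 0.32, against -0.012 with VASA THY1 in place of THY1 cells. Rbp4, the carrier of retinol in blood, stood at 20.8 FPKM in KIT cells and 5.67 FPKM in THY1 cells. Among 14 genes of synthesis and breakdown 3 were 2-fold higher and 1 was 2-fold lower, with a median of -0.26, and of 0.69 against VASA THY1. Adh1, an alcohol dehydrogenase gene, stood at 95.7 FPKM in KIT cells and 19.4 FPKM in THY1 cells. Cyp26b1, whose enzyme breaks retinoic acid down, stood at 29.5 FPKM in KIT cells and 5.99 FPKM in THY1 cells, and Dhrs3, whose enzyme turns retinal back to retinol, at 14.6 FPKM in KIT cells and 5.11 FPKM in THY1 cells. Aldh1a3, whose enzyme makes retinoic acid, was the lower, at 2.68 FPKM in KIT cells and 6.75 FPKM in THY1 cells. Adh1 and Cyp26b1 were under 5 FPKM in both GFP-sorted populations of P7, Adh1 at 2.93 FPKM in OCT4-GFP cells and 0.367 FPKM in ID4-GFP cells, and Cyp26b1 at 3.08 and 0.660 FPKM in that order. Rbp4 was not, with 14.9 FPKM in OCT4-GFP cells and 14.1 FPKM in ID4-GFP cells. The retinoic acid genes thus fall into some shared with sorted germ cells and some at low level there.

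Meiotic genes were a little higher in KIT cells as a group, and few passed 2-fold. Of 18 genes for meiotic entry and the chromosome axis 2 were 2-fold higher, Stra8 and Rec8, and 0 were 2-fold lower, with a median of 0.35. Rec8, a meiotic cohesin gene, stood at 11.8 FPKM in KIT cells and 5.24 FPKM in THY1 cells, and was short of 2-fold after quantile normalization (0.97). The synaptonemal complex gene Sycp3 stood at 126 FPKM in KIT cells and 99.6 FPKM in THY1 cells, a difference of 0.33. Of 24 genes for DNA breaks and recombination 3 were 2-fold higher and 0 were 2-fold lower, with a median of 0.36. These were Ccdc36 and Mei1, needed to form the breaks, with differences of 1.17 and 1.13, and Psmc3ip, which helps strand exchange, with 1.06. Against VASA THY1 both lists turned, with medians of -0.42 for entry and axis and -0.49 for breaks and recombination. Prdm9, which places the breaks, was under 5 FPKM, at 3.11 FPKM in KIT cells and 1.45 FPKM in THY1 cells.

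Histone genes of the replication clusters, which dividing cells use to package new DNA, had a median difference of 0.75, close to that of the differentiating list. Of the 24 listed genes, 4 were 2-fold higher in KIT cells and none was 2-fold lower. Hist1h3b stood at 110 FPKM in KIT cells and 31.1 FPKM in THY1 cells. Hist1h1t, the linker histone gene of the testis, stood at 45.8 FPKM in KIT cells and 12.8 FPKM in THY1 cells. Hist4h4 and Hist1h2bb were at 665 and 1036 FPKM in KIT cells, against 286 and 510.1 FPKM in THY1 cells, and Hist1h2bb was short of 2-fold after quantile normalization and median of ratios scaling. Outside the lists, the histone pseudogene Hist3h2bb-ps was 4-fold higher, at 209 FPKM in KIT cells and 42.1 FPKM in THY1 cells. Histone genes are near copies of each other, so how fragments were shared among them leaves the single values uncertain. Of 14 replacement histones H1fx and H2afx were 2-fold higher and H2afy2 was 2-fold lower (median 0.03). H2afx, whose protein is marked at DNA breaks, stood at 499.7 FPKM in KIT cells and 195 FPKM in THY1 cells. Genes of the cell cycle differed less: among 29 genes of G1 and S phase 2 were 2-fold higher (median 0.30) and among 26 genes of G2 and M phase none was, in either direction (median 0.21). The 2 were the cyclin genes Ccnd1, at 42.9 FPKM in KIT cells and 17.4 FPKM in THY1 cells, and Ccne2, at 44.5 FPKM in KIT cells and 21.6 FPKM in THY1 cells, short of 2-fold after median of ratios scaling (0.98). Among 21 CDK inhibitor and p53 target genes 1 was 2-fold lower, the cell death gene Pmaip1, at 10.2 FPKM in KIT cells and 25.6 FPKM in THY1 cells (list median -0.44, and 0.33 against VASA THY1).

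Genes of Leydig cells, the steroid-making cells between the tubules, had the highest median of the 41 lists, 1.68. Of the 17 listed genes, 15 reached 5 FPKM, 11 were 2-fold higher in KIT cells and 1 was 2-fold lower. In all, 15 lay above 0 and 2 below it, and the 2-fold lower gene is not among those described below. They are given in the order of steroid synthesis. Scarb1, a lipoprotein receptor gene for cholesterol uptake, stood at 76.2 FPKM in KIT cells and 37.2 FPKM in THY1 cells (short of 2-fold after median of ratios scaling, 0.99), and Star, which moves cholesterol into mitochondria, at 70.9 FPKM in KIT cells and 33.6 FPKM in THY1 cells. Cyp11a1, which makes the first steroid from cholesterol, stood at 189.5 FPKM in KIT cells and 36.8 FPKM in THY1 cells, a difference of 2.33. Fdxr, which passes electrons to that enzyme, had a difference of 1.54. Further along the pathway the differences of Hsd3b1 and Cyp17a1 were larger, and that of Hsd17b3 was not. Hsd3b1 stood at 324 FPKM in KIT cells and 11.8 FPKM in THY1 cells, 25.4-fold higher on the FPKM + 1 scale, with close copies in the genome that leave its level uncertain. Cyp17a1, which leads on to androgens, stood at 245 FPKM in KIT cells and 8.46 FPKM in THY1 cells, 26.02-fold higher on that scale and the largest difference of all genes counted as higher, 4.70. Hsd17b3, the enzyme that forms testosterone, went slightly the other way, at 7.77 FPKM in KIT cells and 10.8 FPKM in THY1 cells (-0.43).

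The hormone and receptor genes of Leydig cells followed the enzymes. Insl3, the peptide hormone of testis descent, stood at 258 FPKM in KIT cells and 18.3 FPKM in THY1 cells, a difference of 3.75. Lhcgr, the receptor for luteinizing hormone, stood at 11.6 FPKM in KIT cells and 0.409 FPKM in THY1 cells, a difference of 3.16. Nr5a1, which encodes SF-1, stood at 29.0 FPKM in KIT cells and 7.27 FPKM in THY1 cells. Ren1, the renin gene, stood at 91.4 FPKM in KIT cells and 2.90 FPKM in THY1 cells, a difference of 4.56. Of 17 Leydig cell genes, 0 were listed at 0 in either population. Their summed level was 1682 FPKM in P7 KIT cells, against 340.0 FPKM in P7 THY1 cells, 188 FPKM in P7 VASA THY1, 161 FPKM in OCT4-GFP cells and 107 FPKM in ID4-GFP cells. Cyp17a1 stood at 6.54 FPKM in OCT4-GFP cells and 0.0101 FPKM in ID4-GFP cells, and Insl3 at 6.74 FPKM in OCT4-GFP cells and 0.0196 FPKM in ID4-GFP cells. The P7 KIT column thus had the highest sum of the 5 P7 columns. What part Leydig cells in the selected cells had in the difference was not tested. Genes for making and taking up cholesterol did not share it: 1 of 25 was 2-fold higher, Scarb1, none was 2-fold lower, and the median was -0.02.

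Other genes 4-fold higher in KIT cells shared this pattern of level across the P7 columns. Aldh3a1, an aldehyde dehydrogenase gene, stood at 19.8 FPKM in KIT cells and 0.984 FPKM in THY1 cells. Fxyd1, a regulator of the sodium pump, stood at 38.5 FPKM in KIT cells and 4.47 FPKM in THY1 cells, and Sct, the secretin hormone gene, at 33.0 FPKM in KIT cells and 3.81 FPKM in THY1 cells. Each of these 3 was under 5 FPKM in OCT4-GFP and in ID4-GFP cells. Further genes among the 20 largest differences were Hao2, Serpina3g, Aqp2, Serpina3c, Htra3, Kcnk3, Cst8, Ppp1r14a and Cldn1, with differences between 2.31 and 2.77. The highest levels among these were those of Cst8, a cystatin gene, at 59.5 FPKM in KIT cells and 10.6 FPKM in THY1 cells, and of Htra3, a secreted protease gene, at 55.1 FPKM in KIT cells and 9.001 FPKM in THY1 cells.

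**Figure D3:**
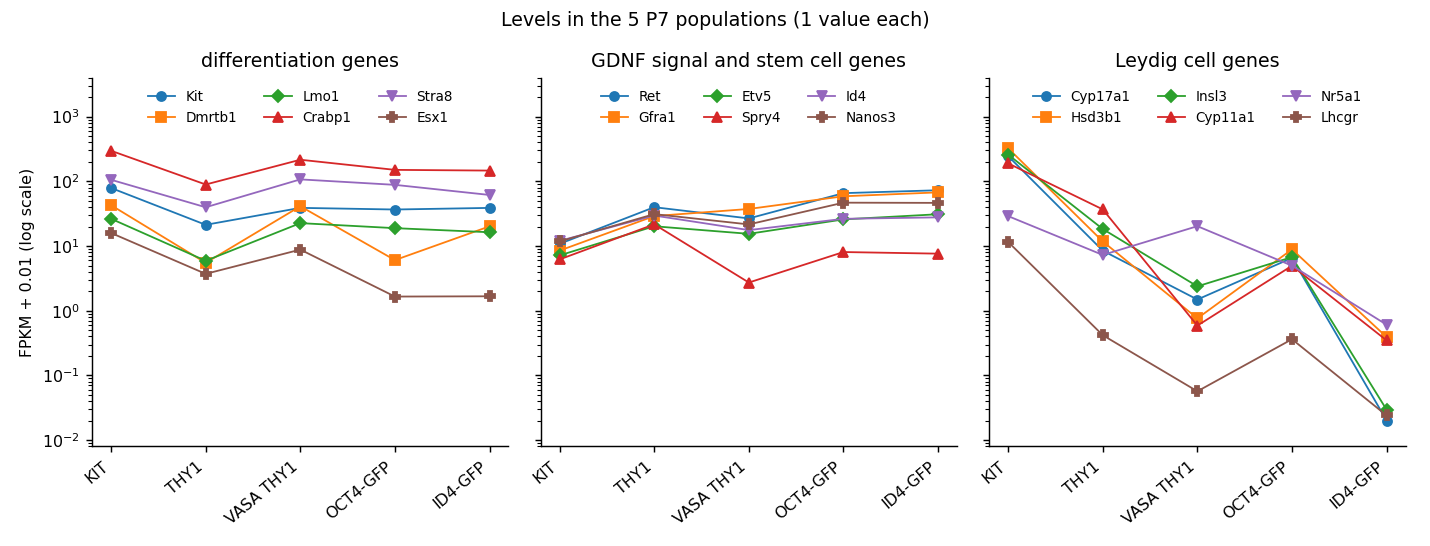
FPKM + 0.01 on a log scale in the 5 P7 columns (KIT, THY1, VASA THY1, OCT4-GFP and ID4-GFP, 1 value each) for genes of differentiation, of GDNF signal and stem cells, and of Leydig cells, with lines that only join the values of 1 gene. Ret and Gfra1 have their lowest P7 value in KIT cells, at 10.8 and 8.49 FPKM, and the Leydig genes drawn have their highest there.

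Markers of other somatic cells gave smaller and mixed differences. Of 19 Sertoli cell genes 2 were 2-fold lower in KIT cells, none was 2-fold higher, 17 lay below 0, and the median was -0.60. Amh, a hormone of immature Sertoli cells, stood at 13.2 FPKM in KIT cells and 37.9 FPKM in THY1 cells, and Trf, the iron carrier transferrin, at 4.67 FPKM in KIT cells and 17.1 FPKM in THY1 cells. Trf was higher in the sorted germ cells than in either, at 43.8 FPKM in OCT4-GFP cells and 37.7 FPKM in ID4-GFP cells. Clu and Dmrt1 had the highest levels of the list. Clu stood at 305 FPKM in KIT cells and 414 FPKM in THY1 cells, and Dmrt1, which germ cells also express, at 238 FPKM in KIT cells and 187 FPKM in THY1 cells. The list summed to 882 FPKM in KIT cells and 1176 FPKM in THY1 cells. Its sum was highest of the P7 columns in VASA THY1, at 1643 FPKM, with 455 FPKM in OCT4-GFP cells and 374 FPKM in ID4-GFP cells. Among 12 genes of peritubular myoid cells, the contractile cells around the tubules, 3 were 2-fold lower, Acta2, Tagln and Myh11, and none was 2-fold higher (median -0.59). Acta2, smooth muscle actin, stood at 36.7 FPKM in KIT cells and 87.9 FPKM in THY1 cells, while Myl9, at 76.7 FPKM in KIT cells and 73.9 FPKM in THY1 cells, did not share it. Against VASA THY1 the median of the myoid list was 0.19. Neither fibroblast nor endothelial genes passed 2-fold in either direction, 0 of 14 with a median of 0.10 and 0 of 18 with a median of 0.23. The collagen gene Col3a1 stood at 120.3 FPKM in KIT cells and 79.2 FPKM in THY1 cells, and Col1a2 at 79.5 and 69.3 FPKM in that order. Egfl7 and Cd34, the endothelial genes of highest level, stood at 59.6 and 45.0 FPKM in KIT cells, against 29.99 and 28.1 FPKM in THY1 cells. Of 15 nerve and glia genes S100b and Nefh were 2-fold higher and 0 were 2-fold lower (median -0.08), and the list summed to 41.3 FPKM in KIT cells and 43.7 FPKM in THY1 cells. Nefh stood between 10.1 and 12.2 FPKM in KIT cells and the 3 other sorted or VASA populations of P7, against 3.64 FPKM in THY1 cells. S100b stood at 6.67 FPKM in KIT cells and 1.15 FPKM in THY1 cells.

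Blood cell genes stood lower in KIT cells, each group with its own pattern. Mast cells are tissue granulocytes whose proteases are among their most abundant transcripts, and 8 of 14 mast cell genes were 2-fold lower in KIT cells, none was 2-fold higher, and the median was -1.24. Cma1, Mcpt4 and Tpsb2, mast cell protease genes, stood at 11.3, 15.2 and 9.67 FPKM in KIT cells, against 33.5, 34.9 and 25.99 FPKM in THY1 cells. Cpa3, a carboxypeptidase of their granules, stood at 6.08 FPKM in KIT cells and 19.1 FPKM in THY1 cells, and Mcpt2, a further protease gene with close copies, at 2.30 FPKM in KIT cells and 20.02 FPKM in THY1 cells. Tph1 and Tpsab1 differed by -1.74 and -1.71, and Hdc by -1.02. The IgE receptor gene Fcer1a was listed at 0 in both. The list summed to 58.8 FPKM in KIT cells and 171 FPKM in THY1 cells, against 9.74, 6.56 and 7.77 FPKM in OCT4-GFP, ID4-GFP and VASA THY1 cells. In P0 THY1 cells it was 495 FPKM. Against VASA THY1 the median was 1.08. Mast cell transcripts were thus present in both bead-selected populations of P7 and at low level in the sorted ones.

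Lymphocyte genes were low in KIT cells and a little higher in THY1 cells. Of 17 in the list 2 reached 5 FPKM, Ptprc and Cd7, and both were 4-fold lower in KIT cells. Ptprc, the common leukocyte antigen CD45, stood at 0.780 FPKM in KIT cells and 7.77 FPKM in THY1 cells. Cd7 stood at 0.835 FPKM in KIT cells and 7.94 FPKM in THY1 cells, but also at 5.55 FPKM in OCT4-GFP cells and 6.79 FPKM in ID4-GFP cells. The T cell receptor chain genes Cd3d, Cd3e and Cd3g were at 0.0931, 0.302 and 0.242 FPKM in KIT cells, against 0.707, 0.588 and 3.02 FPKM in THY1 cells. The list summed to 6.16 FPKM in KIT cells and 36.7 FPKM in THY1 cells, and 17 of 17 lay below 0. Genes of cytotoxic lymphocytes were put together as a group after their values were seen. They were picked among genes 4-fold lower in KIT cells, so their differences and sums are partly fixed by that choice. The granzyme gene Gzmc stood at 0.744 FPKM in KIT cells and 27.6 FPKM in THY1 cells, and Gzmb at 0.157 FPKM in KIT cells and 8.03 FPKM in THY1 cells, both with close copies in the genome. Il2rb, a receptor chain for interleukin-2, stood at 0.410 FPKM in KIT cells and 10.1 FPKM in THY1 cells. The 8 genes of this group (Gzmb, Gzmc, Gzmf, Klrd1, Klrb1b, Il2rb, Cxcr6 and Tnfrsf9) summed to 3.05 FPKM in KIT cells and 80.6 FPKM in THY1 cells, and to between 0.297 and 0.787 FPKM in the other P7 columns. Macrophage genes were nearer: 17 of 17 lay below 0, 4 reached 5 FPKM, none was 2-fold different, and the median was -0.54. Cd74 and Lyz2, the macrophage genes of highest level in these 2 populations, stood at 18.2 and 9.52 FPKM in KIT cells, against 32.2 and 16.0 FPKM in THY1 cells. The macrophage list summed to 49.8 FPKM in KIT cells and 89.2 FPKM in THY1 cells. It summed to 258 FPKM in OCT4-GFP cells, 14.2 FPKM in ID4-GFP cells and 9.22 FPKM in VASA THY1. The OCT4-GFP column was thus not free of macrophage transcripts, with Lyz2 at 68.0 FPKM. Of 16 chemokine and receptor genes 1 was 2-fold lower, Cxcl10, at 2.12 FPKM in KIT cells and 8.03 FPKM in THY1 cells (list median -0.72). Against VASA THY1 the medians were 0.021 for lymphocyte, 0.33 for macrophage and 0.80 for chemokine genes.

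Granulocyte and red blood cell genes, the first grouped after the values were seen, differed more in level. The granulocyte genes were picked among genes 4-fold lower in KIT cells, so their differences and sums are partly fixed by that choice. S100a8 and S100a9, calcium-binding proteins of neutrophils, stood at 16.4 and 20.9 FPKM in KIT cells, against 93.1 and 96.6 FPKM in THY1 cells. With Stfa1, Stfa2l1, Stfa3, BC100530 and Gm5483, which include close copies of the stefin family, they summed to 45.5 FPKM in KIT cells and 266 FPKM in THY1 cells, and to between 1.10 and 3.88 FPKM in the other P7 columns. Hbb-b2, an adult beta globin gene, had the largest difference of all counted genes, -7.49, at 3.94 FPKM in KIT cells and 886 FPKM in THY1 cells. Alas2, which makes heme in red blood cells, stood at 0.888 FPKM in KIT cells and 83.7 FPKM in THY1 cells. Hbb-b1, the copy of Hbb-b2, was listed at 0 in both populations, so globin values are uncertain. Of the 11 red blood cell genes listed, 2 were 2-fold lower, Hbb-b2 and Alas2, and none was 2-fold higher. They summed to 10.9 FPKM in KIT cells and 988 FPKM in THY1 cells, with 5.09 FPKM in OCT4-GFP cells, 3.31 FPKM in ID4-GFP cells and 2.80 FPKM in VASA THY1 cells. At P12 and P14 the sum lay between 1.46 and 7.04 FPKM. The red blood cell signal of P7 THY1 was thus the highest of the 11 columns, and P0 THY1 came next at 52.8 FPKM. Against VASA THY1 the median of the red blood cell list was 0.10, beside -0.83 against THY1 cells. What part blood cells among the selected cells had in these differences was not tested.

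**Figure D4:**
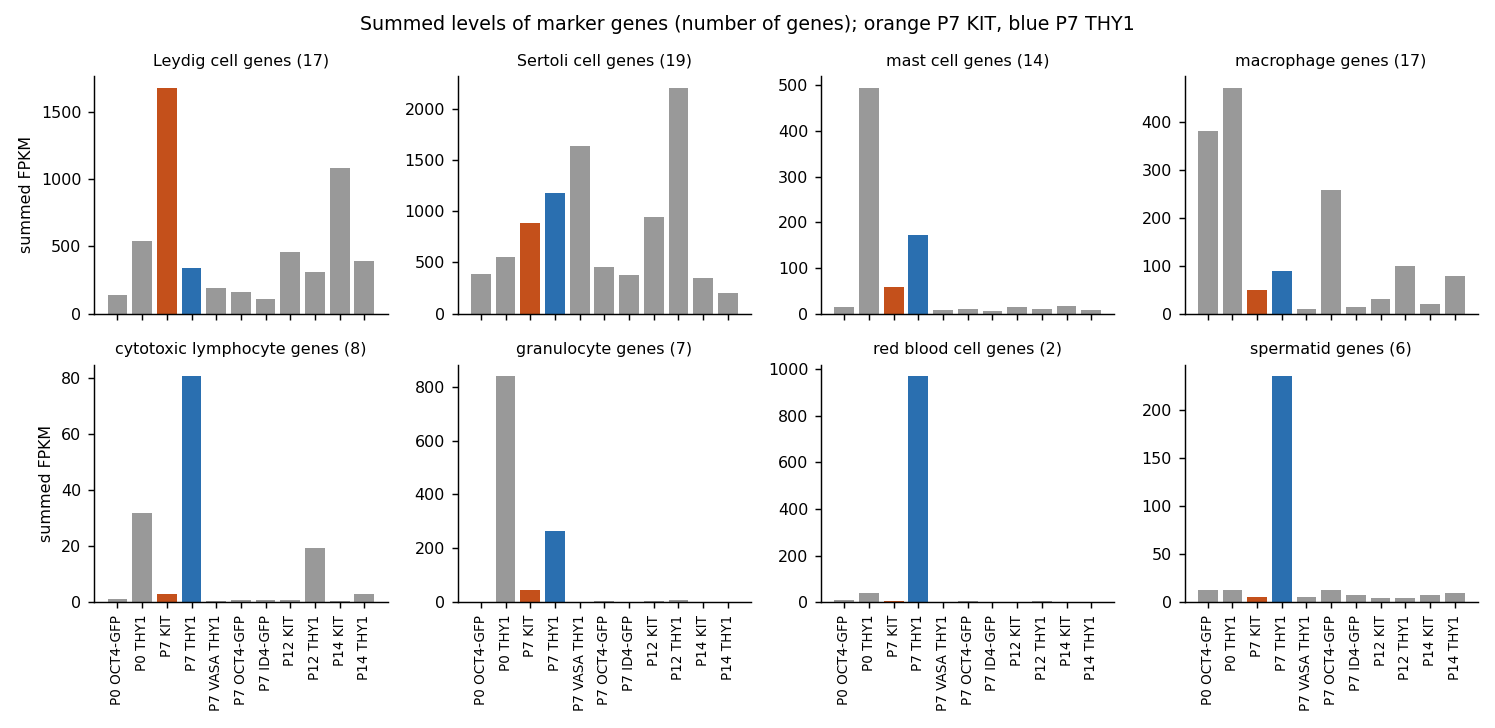
Bars give the summed FPKM of marker genes in each of the 11 columns, with the number of genes in brackets. P7 KIT is orange and P7 THY1 is blue. The lower 4 groups, the red blood cell pair among them, were put together after seeing the values. Their genes were picked among those 4-fold lower in KIT cells, so their P7 sums are partly fixed by that choice. Leydig cell genes sum to 1682 FPKM in P7 KIT and 340.0 FPKM in P7 THY1, while spermatid genes sum to 4.85 FPKM in P7 KIT and 235 FPKM in P7 THY1.

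Genes of spermatids, germ cells that have finished meiosis and are not yet present in a testis of this age, stood in the THY1 column. Of 26 late meiotic and spermatid genes 7 reached 5 FPKM and 4 were 2-fold lower in KIT cells, Prm1, Prm2, Tnp1 and Tnp2, none was 2-fold higher, and the median was -0.91. The protamine and transition protein genes replace histones in the sperm nucleus. Tnp1 stood at 4.69 FPKM in KIT cells and 55.0 FPKM in THY1 cells. The KIT column lists Prm1, Prm2 and Tnp2 at 0, against 101, 29.7 and 37.7 FPKM in THY1 cells. A spermatid group of these 4 with Oaz3 and Gsg1, made after the values were seen, summed to 4.85 FPKM in KIT cells and 235 FPKM in THY1 cells, and to between 4.03 and 13.2 FPKM in the 9 other columns. Its members were picked among genes 4-fold lower in KIT cells, so its high sum in P7 THY1 is partly fixed by that choice. The whole list of 26 summed to 63.7 FPKM in P7 KIT and 298 FPKM in P7 THY1 cells. At P14 it summed to 196 FPKM in KIT cells and 3783 FPKM in THY1 cells, the higher sum being that of P14 THY1. Other spermatid genes of the list were lower in KIT cells at low level, such as Akap4 at 0.249 FPKM in KIT cells and 3.61 FPKM in THY1 cells. The source of these transcripts in P7 THY1 was not tested.

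Of the 44 genes 4-fold lower, 11 were listed at 0 in KIT cells, and none of the 31 higher was listed at 0 in THY1 cells. Besides Prm1, Prm2 and Tnp2 these were Arhgap21, Filip1l, Gphn, 2610528E23Rik, Rpph1, Celf2, Lars2 and 1700018C11Rik. A listed 0 can be a failed estimate: Gapdh, a gene every cell uses, was listed at 0.333 FPKM in KIT cells and 0.491 FPKM in THY1 cells, so no fold is given for them. Gphn, a scaffold and cofactor enzyme gene, stood at 16.6 FPKM in THY1 cells and between 8.08 and 13.2 FPKM in the other P7 columns, and Arhgap21 at 37.8 FPKM in THY1 cells and between 15.3 and 19.97 FPKM there. For these 2 the P7 KIT column, not the THY1 column, stood apart. Without the 11, 33 genes were 4-fold lower.

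Stress and signal genes stood lower in KIT cells. Of 25 immediate early and heat shock genes 5 were 2-fold lower, none was 2-fold higher, 25 of 25 lay below 0, and the median was -0.42, and 0.56 against VASA THY1. Hspa1a and Hspa1b, near-identical heat shock genes, stood at 4.76 and 7.31 FPKM in KIT cells, against 27.9 and 34.3 FPKM in THY1 cells. Atf3, Klf6 and Ier3, which cells switch on within minutes of a stimulus, differed by -1.21, -1.16 and -1.12. Fos and Jun, the classic members, differed by -0.14 and -0.46. Egr1 belongs to this list and to the GDNF list.

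The remaining lists held few genes past 2-fold. Their counts are given over all members in the table, and members under 5 FPKM in both populations could not be counted. At 5 FPKM were, for instance, 22 of 33 BMP, activin and TGF-beta genes, 17 of 31 WNT genes and 14 of 23 X-linked germ cell genes. The counts are therefore not like for like with the 2.78% higher and 2.73% lower over the 9817 genes. In glycolysis and glucose transport 1 of 22 was higher, the lactate exporter Slc16a3, and 2 were lower, Pdk1 and Slc2a1, the main glucose transporter, at 27.01 FPKM in KIT cells and 55.6 FPKM in THY1 cells (median -0.23). Among 30 subunits of oxidative phosphorylation Cox6b2 and Cyc1 were higher and none was lower (median 0.13). Among 33 BMP, activin and TGF-beta genes 2 were lower and none was higher (median -0.26): the activin antagonist Fst, at 7.75 FPKM in KIT cells and 25.1 FPKM in THY1 cells, and Tgfb2. Among 31 WNT genes the ligand Wnt6 was higher, at 13.1 FPKM in KIT cells and 4.12 FPKM in THY1 cells, and none was lower (median -0.13). Among 18 Notch genes the ligand Jag2 was higher, at 18.0 FPKM in KIT cells and 7.41 FPKM in THY1 cells, and none was lower (median 0.12). The genes past 2-fold in the BMP, WNT and Notch lists were ligands or, for Fst, an antagonist, too few to describe a pathway. Surface antigens had 1 higher, Kit, and 2 lower, Cdh1 and Cd44, of 22 (median -0.07). X-linked germ cell genes had Esx1 and Rhox13 higher of 23 and none lower (median 0.08). Of 19 piRNA genes Pld6, a mitochondrial surface enzyme of the pathway, was higher, at 10.5 FPKM in KIT cells and 3.57 FPKM in THY1 cells (median -0.05). Of 15 germ cell RNA-binding protein genes Nanos3 was lower (median -0.13). Of 24 maternally expressed imprinted genes Ascl2 was higher, at 11.8 FPKM in KIT cells and 3.27 FPKM in THY1 cells (median -0.04), and of 28 paternally expressed ones none passed 2-fold (median -0.15). None of 20 DNA methylation genes (median 0.12) and none of 26 cytosolic ribosomal protein genes (median -0.25) passed 2-fold.

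Levels in the other P7 populations placed the 2 bead-selected ones. Genes chosen for a higher level in KIT than in THY1 cells cannot be highest in THY1 cells, so where their highest level lies is partly fixed by that choice. Of the 273 genes 2-fold higher in KIT cells, 61 were highest in VASA THY1, 37 in ID4-GFP cells and 27 in OCT4-GFP cells, and the other 148 in KIT cells. Over the 9817 genes 18.1% were highest in VASA THY1, 26.3% in ID4-GFP cells, 14.5% in OCT4-GFP cells and 15.1% in KIT cells. Stra8 and Dmrtb1 were near the same level in KIT cells and VASA THY1. Stra8 stood at 106 FPKM in KIT cells, against 107 FPKM in VASA THY1, 88.2 FPKM in OCT4-GFP, 61.5 FPKM in ID4-GFP and 39.7 FPKM in THY1 cells. Dmrtb1 stood at 42.7 FPKM in KIT cells, against 41.2 FPKM in VASA THY1, 20.1 FPKM in ID4-GFP, 6.05 FPKM in OCT4-GFP and 5.49 FPKM in THY1 cells. Kit was highest in KIT cells, at 78.9 FPKM, and lay between 36.7 and 38.9 FPKM in the GFP and VASA populations, above the 21.3 FPKM of THY1 cells. GDNF receptor genes were lowest in KIT cells and highest in the GFP populations. Ret stood at 10.8 FPKM in KIT cells, against 26.7 FPKM in VASA THY1, 65.6 FPKM in OCT4-GFP, 72.8 FPKM in ID4-GFP and 39.8 FPKM in THY1 cells. For these 4 genes the THY1 column was thus below both GFP-sorted populations. With genes at 5 FPKM or more in both GFP populations alone, 2 genes were 4-fold higher in KIT cells, Dmrtb1 and Hist3h2bb-ps, and 7 were lower. The low values of the THY1 column also rest on larger steps: among genes under 0.05 FPKM, its commonest ratio to P14 THY1 was 3.72, found for 14.8% of 237 genes, against 1.03, for 19.3% of 488 genes, in the KIT column, and the larger the step, the fewer fragments a value rests on.

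The libraries of P12 and P14 are separate from those of P7 and give the same contrast at later ages. At P12, 471 of 10106 genes (4.66%) were 2-fold higher in KIT cells and 658 (6.51%) were 2-fold lower, and at P14, 859 of 10015 (8.58%) were higher and 1569 (15.7%) lower. Of the 31 genes 4-fold higher at P7, 22 (71.0%) lay on the same side of 0 at P12, beside 51.7% of the 9817 genes, and 24 (77.4%) at P14, beside 58.1%. By the 2-fold rule 9 of the 31 (29.0%) were higher at P12, beside 3.79% of the 9817, and 19 (61.3%) at P14, beside 7.99%. Of the 44 genes 4-fold lower at P7, 30 (68.2%) lay below 0 at P12, beside 48.2%, and 26 (59.1%) at P14, beside 41.9%. By the 2-fold rule 8 of the 44 (18.2%) were lower at P12, beside 5.46%, and 2 (4.55%) at P14, beside 8.88%. A gene under 5 FPKM in both later columns cannot be counted by this rule, and most of the 44 were so at P14. Some, such as Stfa1 and Celf2, were listed at 0 in both P14 columns and lay on no side. The shares of the 44 are therefore not like for like with those over the 9817 genes. Of the 273 genes 2-fold higher at P7, 52 (19.05%) were 2-fold higher at P12 and 98 (35.9%) at P14. Of the 268 genes 2-fold lower, 95 (35.4%) were 2-fold lower at P12 and 79 (29.5%) at P14. The direction with the larger share thus depended on the age and on the bound. Of the same 268 genes, 233 (86.9%) lay below 0 at P12, beside 48.2%, and 211 (78.7%) at P14, beside 41.9%.

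Kit, Stra8, Ret and Gfra1 lay on the same side of 0 at all 3 ages, while Hist1h1t, Cox6b2, Psmc3ip and Pld6 lay on the other side at P14. Kit stood at 72.5 FPKM in KIT cells and 15.4 FPKM in THY1 cells at P12, and at 103 FPKM in KIT cells and 24.1 FPKM in THY1 cells at P14. Stra8 stood at 192 FPKM in KIT cells and 32.0 FPKM in THY1 cells at P12, and at 251 and 35.0 FPKM in that order at P14, so that its difference was 1.39 at P7, 2.54 at P12 and 2.81 at P14. Ret had differences of -1.79, -1.04 and -3.32 at P7, P12 and P14, and Gfra1 of -1.66, -0.86 and -3.14. At P14 Ret stood at 1.23 FPKM in KIT cells and 21.3 FPKM in THY1 cells. The median of the differentiating list was 0.78, 0.99 and 1.44 at the 3 ages, and that of the GDNF list -0.94, -0.80 and -0.68. Dmrtb1 did not keep its size, with 62.6 FPKM in KIT cells and 53.4 FPKM in THY1 cells at P14, a difference of 0.23. Meiotic entry genes had medians of 0.35 at P7, 1.29 at P12 and 0.71 at P14.

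The Leydig cell list had medians of 1.68, 0.52 and 1.27 at P7, P12 and P14, but not every gene lay on the same side. Nr5a1 stood at 11.8 FPKM in KIT cells and 18.8 FPKM in THY1 cells at P12 (-0.63), and Scarb1 at 44.8 FPKM in KIT cells and 60.9 FPKM in THY1 cells (-0.44). Cyp17a1 stood at 38.7 FPKM in KIT cells and 6.75 FPKM in THY1 cells at P12, and at 124 FPKM in KIT cells and 27.8 FPKM in THY1 cells at P14. Insl3 stood at 77.1 FPKM in KIT cells and 16.8 FPKM in THY1 cells at P12, and at 256 FPKM in KIT cells and 81.3 FPKM in THY1 cells at P14. The summed Leydig level was 456 FPKM in KIT cells and 313 FPKM in THY1 cells at P12, and 1081 FPKM in KIT cells and 393 FPKM in THY1 cells at P14. The spermatid group made after the values were seen, globin and mast cell genes did not keep the size of their P7 difference. The median of the whole late meiotic and spermatid list was -0.91 at P7, 0 at P12 and -1.48 at P14. Prm1 was listed at 0 in both populations at P12 and stood at 1.40 FPKM in KIT cells and 1.46 FPKM in THY1 cells at P14. Hbb-b2 stood at 1.31 FPKM in KIT cells and 2.96 FPKM in THY1 cells at P12. Mast cell genes summed to 13.9 FPKM in KIT cells and 9.44 FPKM in THY1 cells at P12. Among the cytotoxic genes, Gzmc kept its side, at 0.166 FPKM in KIT cells and 10.9 FPKM in THY1 cells at P12, a difference of -3.35.

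**Figure D5:**
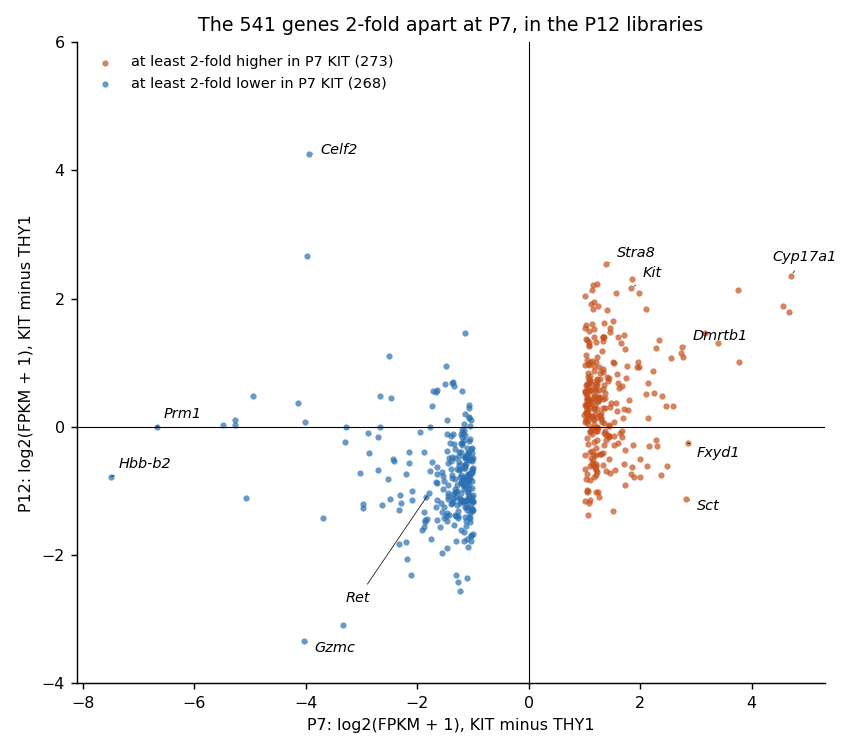
Each point is 1 of the 541 genes 2-fold apart at P7, with log2(FPKM + 1) of KIT minus THY1 cells at P7 on the horizontal axis and at P12 on the vertical axis. Of the 268 genes lower in P7 KIT cells (blue) 233 lie below 0 at P12, and of the 273 higher (orange) 188 lie above 0.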

How the data were processed

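The authors deposited FPKM values, which scale fragment counts by transcript length and library size, for 20889 gene symbols in 11 columns. Per the submitters' processing notes, the work used CASAVA, TopHat2 2.0.9, Cufflinks 2.1.1 and the build mm9, without roles or order. The annotation, and whether strand was used in counting, are not given in the sources used here. P7 KIT and P7 THY1 each have 1 value for 2 libraries, 4 of the 16 RNA libraries. Every column was matched to its labels, and 0 were left unmatched.

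Differences of log2(FPKM + 1) were computed from the deposited FPKM in Python 3.11.15 with numpy 2.4.6 and pandas 2.3.3, and drawn with matplotlib 3.10.9. Scaling was left as deposited: the 75th percentile was 17.6 FPKM for KIT and 17.3 FPKM for THY1. Rmrp alone held 35.0% of the KIT and 41.0% of the THY1 sum of FPKM. With 1 value per group, no test was run. Read depth is unknown, and the step of the lowest values is uncertain by a whole-number factor, so no interval is given. The calculation was tested on simulated data. Symbols were used as listed, and 18718 of 20889 are current in the name table. The 41 gene lists held 864 entries, of which 849 were in the table, 16 through a synonym.

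The comparison, the lists and the rules were chosen with earlier results of these data known. Genes were named by a rule: Kit and Thy1, the 20 largest differences in each direction among those at 4-fold, up to 6 members per list at 2-fold and, for other cell types, the 2 members of highest FPKM. Other genes were named after their values were seen. Some genes that the rule names are not reported here.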

Additional observations from a re-analysis of the deposited data

Results flagged for a closer look

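Some genes counted as different at P7 lay past 2-fold on the other side at a later age, in libraries separate from those of P7; each is given as the later difference of log2(FPKM + 1), KIT minus THY1, and the change of side was not tested. At P12, Sct, the secretin gene, had a difference of -1.12, with 3.70 FPKM in KIT cells and 9.24 FPKM in THY1 cells, against a P7 difference of 2.82. Slc16a3, a lactate transporter gene, had a P12 difference of -1.09, with 4.71 FPKM in KIT cells and 11.2 FPKM in THY1 cells, against 1.25 at P7. Rpph1, the RNA of ribonuclease P, and Celf2, an RNA-binding protein gene, had P12 differences of 2.67 and 4.26, but both were listed at 0 in P7 KIT and in P12 THY1 cells, so neither side is a measured level.

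At P14 the changes of side included germ cell genes. Hist1h1t, the testis linker histone gene, had a difference of -2.55, with 210.2 FPKM in KIT cells and 1234 FPKM in THY1 cells, against 1.76 at P7. Cox6b2, a respiratory chain subunit gene of the testis, had -3.18, with 31.8 FPKM in KIT cells and 296 FPKM in THY1 cells, against 1.07 at P7. Psmc3ip, a recombination gene, had -1.52 against 1.06, and Pld6, a piRNA pathway gene, -1.61 against 1.33. The levels of these 4 at P14 were higher in THY1 cells. Htra3, a secreted protease gene, had -1.76 against 2.49, Cyp26b1, the retinoic acid breakdown gene, -1.58 against 2.13, and S100b, a glial calcium-binding protein gene, -1.31 against 1.84. The value of 2610528E23Rik at P14, 3.74, rests on a listed 0 in P14 THY1 cells, and that at P7 on a listed 0 in P7 KIT cells.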

How the results depend on the processing

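No paired analysis was possible because the table holds 1 value per group with no replicate number, and leaving out a replicate was not run for the same reason. Against 75 genes at 4-fold (31 higher and 44 lower in KIT cells), both other scalings, filters at 1 FPKM or none and leaving out genes listed at 0 gave totals between 64 and 85. A pseudocount of 0.1 gave 106, 49 of them higher. A bound of 20 FPKM gave 34, 18 higher and 16 lower, and 8-fold gave 24, 7 higher and 17 lower. With only genes at 5 FPKM in both GFP-sorted P7 columns, chosen after seeing the data, 9 remained in the count, 2 higher and 7 lower. Another comparison population moved the total and the higher count further up than any other setting. With VASA THY1 in place of THY1, 248 genes were counted, 205 higher and 43 lower, 29 of them among the 75. With OCT4-GFP cells it was 374, 317 higher and 57 lower, and with ID4-GFP cells 571, 545 higher and 26 lower. List medians above 0 numbered 16 of 41, and 27 with VASA THY1. With that library 22 of 41 medians lay on the other side of 0. Of these, 13 were at least 0.3 from 0 against THY1: GDNF receptor and signal (0.80), differentiating spermatogonia (-0.027), retinoic acid receptors (-0.012), meiotic entry (-0.42), meiotic breaks (-0.49), CDK inhibitors (0.33), immediate early genes (0.56), myoid (0.19), macrophage (0.33), mast (1.08), T cell (0.021), red blood cell (0.10) and chemokine genes (0.80). The other 9 were retinoic acid synthesis and breakdown (0.69), BMP, activin and TGF-beta (0.36), surface antigens (0.41), cytosolic ribosomal proteins (0.14), cholesterol (0.23), WNT (0.11), maternally (0.15) and paternally expressed imprinted genes (0.15) and DNA methylation (-0.0062). Of the 118 named genes counted at 2-fold, 41 lay on the other side of 0 against it. The cause was not tested. Quantile normalization turned the medians of the KIT ligand list (-0.0016, against 0.014) and the maternally expressed list (0.013, against -0.041) and took Hist1h2bb and Rec8 below 2-fold. Median of ratios turned the KIT ligand list (-0.011) and took Hist1h2bb, Ccne2 and Scarb1 below 2-fold. Under both, 0 of 118 counted named genes changed side.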

Other observations

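Some of the larger differences among genes that sorted germ cells also express, at 5 FPKM or more in both the OCT4-GFP and ID4-GFP columns, lay outside the gene lists. They were chosen after their values were seen, as the 15 largest in each direction. Six4, a homeobox gene, stood at 6.68 FPKM in KIT cells and 26.8 FPKM in THY1 cells, a difference of -1.86. Fbxo32, a ubiquitin ligase subunit gene, stood at 21.2 FPKM in KIT cells and 78.4 FPKM in THY1 cells, a difference of -1.84. Ell3, a transcription elongation factor gene, stood at 4.78 FPKM in KIT cells and 17.2 FPKM in THY1 cells, and Amot, the gene of the cell junction protein angiomotin, at 6.05 FPKM in KIT cells and 21.1 FPKM in THY1 cells. The same 15 hold Ret, Gfra1 and Tcl1, and also Tnp1, Mtrnr2l, Cd7 and Trf. All were chosen by the size of their difference, so being among the 15 together shows no link between them. At P12 Fbxo32 stood at 24.8 FPKM in KIT cells and 54.3 FPKM in THY1 cells, and Six4 at 3.50 FPKM in KIT cells and 11.6 FPKM in THY1 cells.

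In the other direction, Hist3h2ba, a histone gene, stood at 306 FPKM in KIT cells and 77.0 FPKM in THY1 cells, and Hist1h4j at 206 FPKM in KIT cells and 64.9 FPKM in THY1 cells, with the uncertainty of close copies. Ppdpf stood at 21.0 FPKM in KIT cells and 5.78 FPKM in THY1 cells, Selm, a selenoprotein gene, at 28.0 FPKM in KIT cells and 8.68 FPKM in THY1 cells, and Fam69b at 12.9 FPKM in KIT cells and 3.47 FPKM in THY1 cells.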
